A study of Sicyos edulis with 9 samples.

Results

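The unigenes of chayote fruit described here comprise 1 of cinnamate-4-hydroxylase (SeC4H1) and 5 of 4-coumarate-CoA ligase (Se4CL1, Se4CL2, Se4CL3, Se4CL4 and Se4CL7). They were chosen by name from a short supplementary list of structural genes and transcription factors of flavonoid synthesis, and are 6 of 57814 assembled unigenes. The study presents that list as genes that rose or fell between the stages of these same libraries. RNA was sequenced from wild-type fruits of chayote (Sicyos edulis, a cucurbit) at 3 stages, namely S1 at the optimal time of harvest, S2 at 15 and S3 at 30 days in storage, with 3 biological replicates per stage and 9 libraries in all. The fruits were stored at room temperature per the series description and at a cool temperature per the methods. Storage time and the age of the fruit cannot be told apart. Expression is given as FPKM, fragments scaled to the length of the unigene and to the mapped fragments of the library, which can be compared between unigenes of different length.

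C4H and 4CL catalyse the second and the third step of the general phenylpropanoid pathway. C4H is a cytochrome P450 of the endoplasmic reticulum that hydroxylates cinnamic acid, the product of phenylalanine ammonia lyase (PAL), to p-coumaric acid, and 4CL links p-coumaric acid to coenzyme A. The product, p-coumaroyl-CoA, is shared by chalcone synthase (CHS), which opens the flavonoid branch, and by the lignin branch, and plants commonly hold several copies of 4CL that differ in where and when they are expressed.

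The unigenes are known to the files only by their assembly identifiers. SeC4H1 was TRINITY_DN2847_c0_g1, Se4CL1 was TRINITY_DN12682_c0_g3, Se4CL2 was TRINITY_DN8326_c0_g1, Se4CL3 was TRINITY_DN9941_c2_g5, Se4CL4 was TRINITY_DN3700_c0_g1 and Se4CL7 was TRINITY_DN1597_c0_g1. No genome position or transcript sequence was used, and the tissue label could not be checked against markers, because the other unigenes carry no names. For SeC4H1 and Se4CL2, the qRT-PCR primers that the study gives under these names are shown. They were tied to the unigenes by the gene locus named with both, and were not aligned to any transcript. They are written 5′ to 3′, and no base is capitalised because no motif was searched.
SeC4H1 forward: acgtcgtcttcgatatcttc
SeC4H1 reverse: gcttgattctcgtctcctta
Se4CL2 forward: cttcttctaacccactcatcta
Se4CL2 reverse: tcctcggtaagttcattctc
The SeC4H1 primers are both 20 bases long, and the Se4CL2 primers have 22 and 20 bases.

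A doubt about stages bears on 4 of the 6 members. A longer supplementary list, of structural genes alone and called the supplementary list from here on, gives values for each library, and 91 of its 95 entries could be matched to 1 unigene by all 9 values. Of these, 72 stood under the same stages as in the files and 19 stood under other stages. Se4CL4 and Se4CL7 were among the 72, and SeC4H1, Se4CL1, Se4CL2 and Se4CL3 were among the 19. SeC4H1 is named SeC4H2 there. For SeC4H1 and Se4CL3, the libraries that the files call S3, S1 and S2 were listed as S1, S2 and S3. For Se4CL1 and Se4CL2, the files' S2, S1 and S3 were listed as S1, S2 and S3. Of the 16 entries for 4CL, 15 were matched, 12 of them under the same stages and 3 under others. Values below follow the stages of the files. The outcome under the other listing is given for the folds, the order of levels, the shares and ratios, the neighbouring steps and the likenesses. Which listing is right was not tested with the deposited files, and the study's qRT-PCR of SeC4H1 and Se4CL2 was not used here.

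Summed FPKM, which is scaled and does not measure library size, was lower in every S3 library than in every S1 or S2 library. The reason was not tested. The S1 libraries summed to between 868507 and 886010 FPKM, S2 to between 902834 and 914583 and S3 to between 801066 and 832808, and between 25749 and 27466 unigenes had at least 1 FPKM. Depth relative to S1 replicate 2 was estimated from the most common ratio between values of 0.25 to 2 FPKM, and ran between 0.730 and 1.29. It was not checked against the read totals that the study states. In bulk fruit tissue, fewer cells of a type and less RNA per cell cannot be told apart.

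SeC4H1, which carries out the hydroxylation of cinnamic acid, had the highest mean of the 6 at harvest and fell during storage. Its values were 106.81, 220.62 and 287.40 FPKM in S1, then 81.16, 58.13 and 30.19 FPKM in S2, and 37.47, 31.64 and 34.47 FPKM in S3. Every S2 library lay below every S1 library, as for 21.5% of all tested unigenes, every S3 library did so too, as for 28.1%, and S2 and S3 overlapped. The means were 205 ± 91.3 FPKM in S1, 56.5 ± 25.5 FPKM in S2 and 34.5 ± 2.92 FPKM in S3 (SD, n = 3 each), so that S2 held 27.6% and S3 held 16.8% of the S1 mean. On the log2(FPKM + 1) scale, on which all folds below are given, the difference was -1.84 ± 0.42 (SE) for S2 vs. S1 (limma, adjusted p = 0.0186), -0.59 for S3 vs. S2 (adjusted p = 0.280) and -2.42 for S3 vs. S1 (adjusted p = 0.00166).

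The S2 vs. S1 fall of SeC4H1 had the highest adjusted p among the 4 members that fell. It missed the threshold when S1 replicate 2, S1 replicate 3, S2 replicate 2 or S2 replicate 3 was left out, with folds of -1.73, -1.54, -1.91 and -1.45 and adjusted p between 0.0538 and 0.0604 in these 4 limma fits. The replicates of SeC4H1 were spread widely, with a log2 SD of 0.73 in S1 and 0.71 in S2, against medians of 0.24 and 0.10 over 16210 unigenes of at least 5 FPKM on average. In S3 its SD was 0.12, against a median of 0.20. The S3 vs. S1 fall passed with each library left out in turn.

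Se4CL1 was the highest of the 5 ligase unigenes at harvest. It had 132.71, 83.68 and 90.00 FPKM in S1, 21.25, 22.38 and 16.36 FPKM in S2, and 31.99, 10.52 and 8.20 FPKM in S3. All S2 libraries lay below all S1 libraries, as for 21.5% of tested unigenes, and all S3 libraries did so too, as for 28.1%. S3 replicate 1 lay above all S2 libraries while the other S3 libraries lay below them. Means were 102 ± 26.7, 20.0 ± 3.20 and 16.9 ± 13.1 FPKM in S1, S2 and S3 (SD, n = 3 each). The S2 vs. S1 fold was -2.28 ± 0.43 (SE; limma, adjusted p = 0.00897) and the S3 vs. S1 fold was -2.73 (adjusted p = 0.00111). For S3 vs. S2 the fold was -0.46 with a 95% interval of -1.44 to 0.53 (limma, adjusted p = 0.422). Without S3 replicate 1 that fold was -1.02 and passed the limma test (adjusted p = 0.00999), so 1 library decides whether a second fall is called.

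Se4CL2, a further ligase copy, stood at a lower level. Its values were 22.73, 29.11 and 46.03 FPKM in S1, 11.84, 11.35 and 13.38 FPKM in S2, and 13.68, 9.21 and 11.06 FPKM in S3. The S1 libraries were again above all S2 libraries, as for 21.5% of tested unigenes, and above all S3 libraries, as for 28.1%. S2 and S3 overlapped. S2 (12.2 ± 1.06 FPKM) held 37.4% and S3 (11.3 ± 2.25 FPKM) held 34.7% of the S1 mean of 32.6 ± 12.0 FPKM (SD, n = 3 each). The fold was -1.29 ± 0.24 (SE) for S2 vs. S1 (limma, adjusted p = 0.00875) and -1.41 for S3 vs. S1 (adjusted p = 0.00176). For S3 vs. S2 it was -0.11, with a 95% interval of -0.67 to 0.45 (limma, adjusted p = 0.737).

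Se4CL3 was the least abundant of the falling copies. It had 26.33, 20.12 and 12.78 FPKM in S1, 4.29, 6.08 and 3.80 FPKM in S2, and 2.43, 3.64 and 4.16 FPKM in S3. No S2 library reached the S1 libraries, as for 21.5% of tested unigenes, and no S3 library did, as for 28.1%. Means of 4.72 ± 1.20 FPKM in S2 and 3.41 ± 0.888 FPKM in S3 were 23.9% and 17.3% of the S1 mean, 19.7 ± 6.78 FPKM (SD, n = 3 each). The fold was -1.82 ± 0.28 (SE) for S2 vs. S1 (limma, adjusted p = 0.00385) and -2.20 for S3 vs. S1 (adjusted p = 0.000363). It was -0.38 for S3 vs. S2 (limma, adjusted p = 0.305). The S2 vs. S1 and S3 vs. S1 falls of Se4CL1, Se4CL2 and Se4CL3 passed in all 20 alternative fits other than the one with the stages of the supplementary list.

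Se4CL4 moved the other way. It had 24.27, 25.75 and 23.07 FPKM in S1, 30.22, 35.09 and 47.35 FPKM in S2, and 83.30, 45.01 and 42.20 FPKM in S3. The S2 libraries were all above the S1 libraries, as for 16.8% of tested unigenes, the S3 libraries were also above S1, as for 24.8%, and S2 and S3 overlapped. The mean was 24.4 ± 1.34 FPKM in S1, 37.6 ± 8.83 FPKM in S2 and 56.8 ± 23.0 FPKM in S3 (SD, n = 3 each), and the ratio to the S1 mean was 1.54 in S2 and 2.33 in S3. Only S3 vs. S1 passed the test, at 1.12 ± 0.26 (SE; limma, adjusted p = 0.00736). The S2 vs. S1 fold was 0.58 (limma, adjusted p = 0.174) and the S3 vs. S2 fold was 0.54 (adjusted p = 0.122). Without S3 replicate 1 the S3 vs. S1 fold was 0.82 and still passed (limma, adjusted p = 0.00863), and the S2 vs. S1 fold of 0.58 then also passed (adjusted p = 0.0422).

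Se4CL7 was close to the detection limit. It was listed at 0, 0 and 0.16 FPKM in S1, 0, 0 and 0.31 FPKM in S2, and 0, 0.41 and 0.53 FPKM in S3, so it never reached 1 FPKM and did not enter the limma fit. Zeros occurred at every stage and the stages overlapped. An exact two-sided permutation test of its mean gave p = 1 for S2 vs. S1, p = 0.4 for S3 vs. S2 and p = 0.4 for S3 vs. S1, where 0.1 is the smallest p that 3 against 3 libraries allow.

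The order of levels, by mean FPKM, changed with stage. In S1 it was SeC4H1, Se4CL1, Se4CL2, Se4CL4, Se4CL3 and Se4CL7, where the libraries of SeC4H1 and Se4CL1 overlapped, as did those of Se4CL2 and Se4CL4 and of Se4CL4 and Se4CL3. In S2 it was SeC4H1, Se4CL4, Se4CL1, Se4CL2, Se4CL3 and Se4CL7, and SeC4H1 and Se4CL4 were the one neighbouring pair whose libraries overlapped. In S3 it was Se4CL4, SeC4H1, Se4CL1, Se4CL2, Se4CL3 and Se4CL7, and Se4CL1 overlapped with SeC4H1 and with Se4CL2. Under the stages of the supplementary list, Se4CL4 stood between SeC4H1 and Se4CL1 in S1, and between Se4CL1 and Se4CL2 in S2. In S3 the order was as above, but the libraries of Se4CL4 and SeC4H1 then overlapped.

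**Figure D1:**
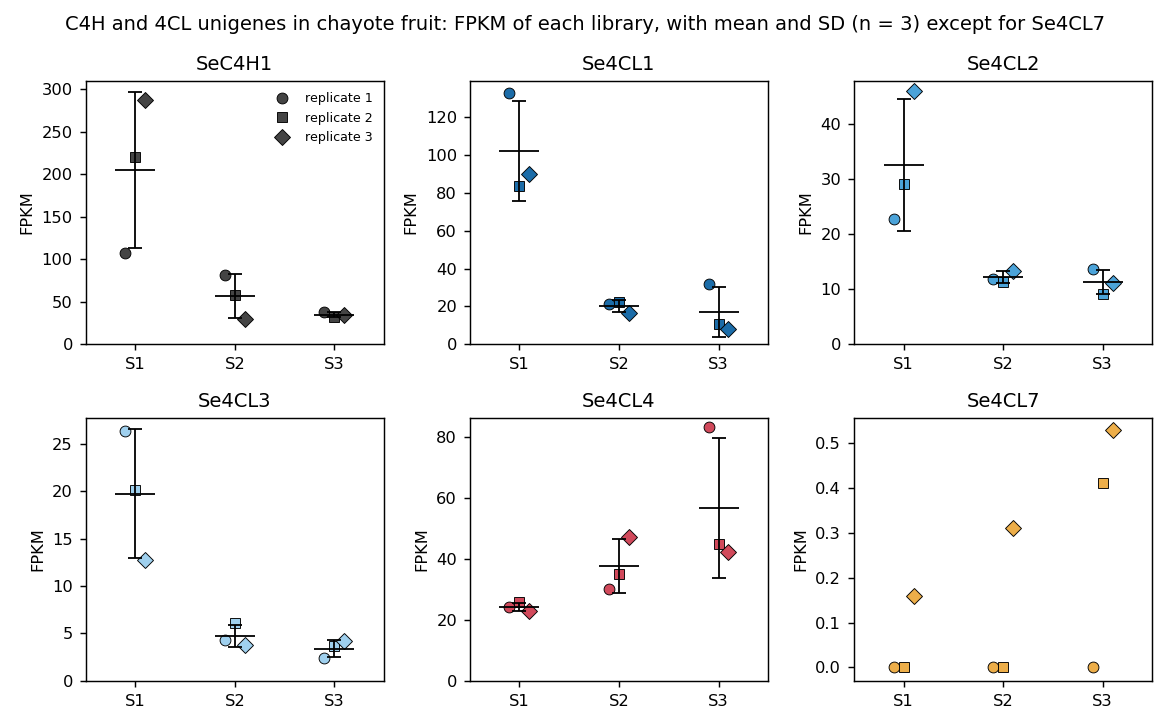
FPKM of the 6 unigenes in each of the 9 libraries by stage, with the mean and SD of the 3 replicates (points only for Se4CL7) and a separate vertical axis for each. SeC4H1, Se4CL1, Se4CL2 and Se4CL3 are highest in the 3 S1 libraries, Se4CL4 is lowest there, and Se4CL7 stays at or below 0.53 FPKM.

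By the stages of the files, the fall of SeC4H1, Se4CL1, Se4CL2 and Se4CL3 was called over the first 15 days and not over the second. The members come from a list made by change in these same libraries, so the counts and shares below describe them and test nothing. In the S2 vs. S1 comparison, 4 of the 5 tested members were lower and none was higher, where 10.7% of all 30201 tested unigenes were lower and 7.24% were higher. In the S3 vs. S2 comparison none of the 5 passed the limma test in either direction (adjusted p between 0.122 and 0.737, and 0 at an unadjusted p under 0.05), although 46.5% of all tested unigenes did. In the S3 vs. S1 comparison 4 were lower and 1 was higher, where the shares over all tested unigenes were 25.4% and 22.1%. The median fold of the 5 members was -1.82, -0.38 and -2.20 for S2 vs. S1, S3 vs. S2 and S3 vs. S1, and that of all tested unigenes was -0.03, 0.00 and -0.05. The pattern of a lower S2, no call between S2 and S3 and a lower S3 than S1 held for SeC4H1, Se4CL1, Se4CL2 and Se4CL3 and for 3.92% of tested unigenes. Se4CL4 had a higher S3 than S1 with neither step called, as did 3.43% of tested unigenes.

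Of the total change in mean FPKM between S1 and S3, the first step made up 87.1% for SeC4H1, 96.4% for Se4CL1, 95.9% for Se4CL2 and 92.0% for Se4CL3. For Se4CL4 it made up 40.6%, so the second step was the larger in FPKM. It made up 68.5% without S3 replicate 1 and 51.9% without S2 replicate 1, so the first step was then the larger. Without S2 replicate 3 it made up 25.5%. On the log2 scale the steps of Se4CL4 were close, at 0.58 for the first and 0.54 for the second. For the 4 falling members, with each library left out in turn, the first step made up between 79.4% and 101.6%. These values without a library were added after the data were seen. The difference between the 2 steps was itself tested as the S3 vs. S2 fold minus the S2 vs. S1 fold, and it passed for none of the 5 members, where 32.3% of tested unigenes passed. For Se4CL3 it was 1.45 with an adjusted p of 0.0510 in limma, for Se4CL2 1.18 with 0.0632, for Se4CL1 1.82 with 0.0979 and for SeC4H1 1.25 with 0.227. The unadjusted p was under 0.05 for Se4CL1, Se4CL2 and Se4CL3. For Se4CL4 it was -0.04, with a 95% interval of -1.07 to 0.99. It passed for Se4CL1 without S3 replicate 1 (1.26, limma, adjusted p = 0.0373) or S3 replicate 3 (2.18, adjusted p = 0.0442). It passed for Se4CL2 without S1 replicate 1 (1.40, adjusted p = 0.0185), and for Se4CL3 without S1 replicate 3 (1.71, adjusted p = 0.0166) or S3 replicate 1 (1.62, adjusted p = 0.0384).

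**Figure D2:**
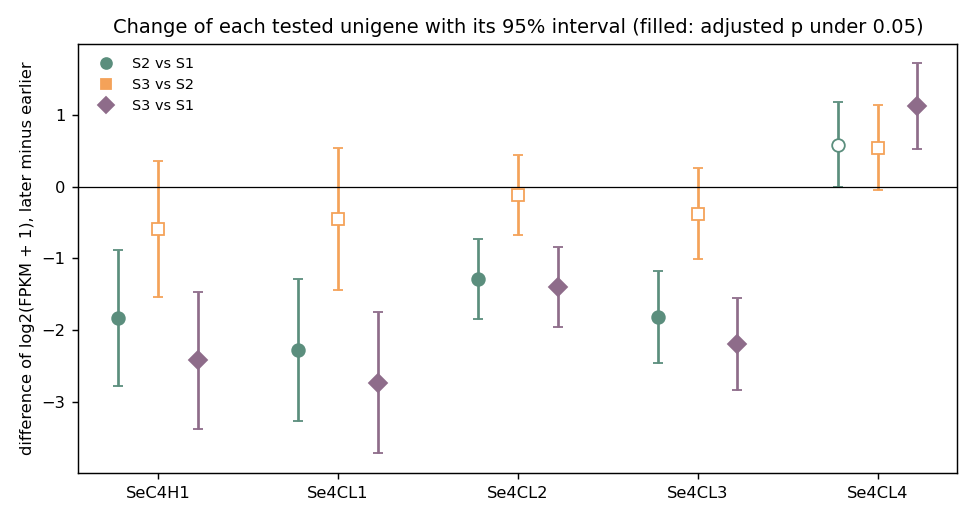
Difference of log2(FPKM + 1), later minus earlier stage, for the 5 tested unigenes with 95% intervals; filled symbols passed the test at an adjusted p under 0.05. The S2 vs. S1 and S3 vs. S1 symbols of SeC4H1, Se4CL1, Se4CL2 and Se4CL3 are filled and below 0, none of the S3 vs. S2 symbols is filled, and Se4CL4 is filled only for S3 vs. S1.

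Under the stages of the supplementary list the timing was different. SeC4H1, Se4CL1, Se4CL2 and Se4CL3 were then higher in S2 than in S1, by 2.42, 2.28, 1.29 and 2.20 (limma, adjusted p between 0.00181 and 0.00895). They were lower in S3 than in S2, by -1.84, -2.73, -1.41 and -1.82 (adjusted p between 0.000962 and 0.00669). S3 vs. S1 was 0.59, -0.46, -0.11 and 0.38 and passed for none of the 4 (adjusted p between 0.278 and 0.737). The difference between the steps then passed for all 4, at -4.26, -5.01, -2.70 and -4.02 (adjusted p between 0.000668 and 0.00302). Se4CL4, listed under the same stages in both, kept its folds.

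**Figure D3:**
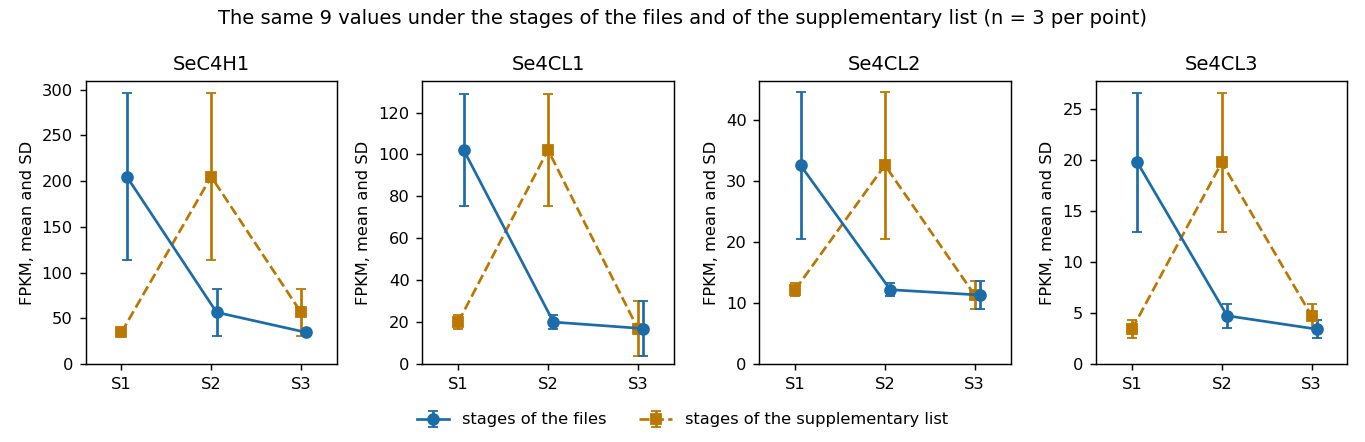
Mean FPKM and SD (n = 3) of SeC4H1, Se4CL1, Se4CL2 and Se4CL3 by stage, with the stages of the files as circles on solid lines and those of the supplementary list as squares on broken lines. The 9 values of each unigene are the same in both, and the highest mean stands at S1 in the files and at S2 in the supplementary list.

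Among the 5 ligase members, the leading unigene changed between harvest and storage. Another ligase unigene, Se4CL10, described below, lay above Se4CL4 in every library. It also lay above Se4CL1 in every S2 and S3 library and in S1 replicate 2. Se4CL1 was the highest of the 5 in all 3 S1 libraries, and Se4CL4 was the highest in all 6 S2 and S3 libraries. The sum of the 5 was 178.9 ± 24.4 FPKM in S1, 74.6 ± 6.81 FPKM in S2 and 88.8 ± 36.9 FPKM in S3 (SD, n = 3 each). Se4CL1, Se4CL2 and Se4CL3 together made up between 83.8% and 88.2% of it at S1, 41.3% to 55.3% at S2 and 34.0% to 36.6% at S3. The log2 ratio of Se4CL4 to Se4CL1 stood at -2.04 ± 0.38 for S1 libraries, 0.90 ± 0.56 for S2 and 1.95 ± 0.51 for S3 (SD, n = 3 each). These shares are described without a test, as the split into falling and rising copies was known from the same libraries. With the stages of the supplementary list, the share averaged 59.3%, 80.2% and 36.3% in S1, S2 and S3 and the log2 ratio 0.30, -1.44 and 1.95, so S3 alone was little changed.

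The ratio of the hydroxylase to the ligases varied more. SeC4H1 divided by the sum of the 5 ligase unigenes ran between 0.518 and 1.67 at S1, 0.372 and 1.20 at S2, and 0.285 and 0.521 at S3, and the ranges of neighbouring stages overlapped. Its mean was 1.19, 0.783 and 0.422 in that order, against 0.577, 1.09 and 0.628 under the stages of the supplementary list, where S2 and not S1 was highest.

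**Figure D4:**
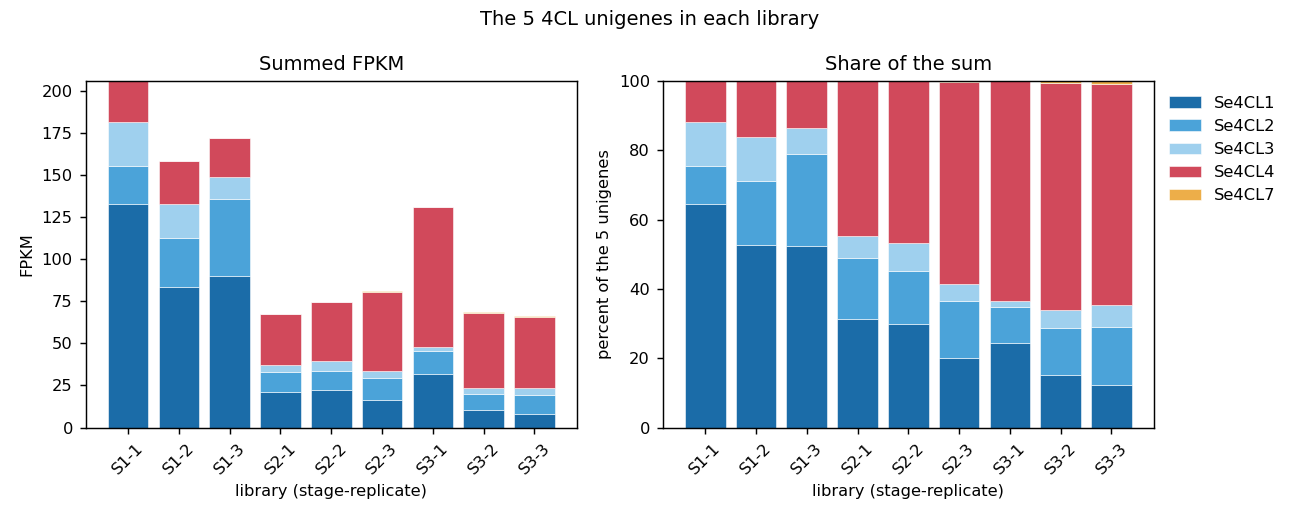
Summed FPKM (left) and percent of the sum (right) of the 5 ligase unigenes in each library, labelled by stage and replicate, stacked by unigene. Se4CL1, Se4CL2 and Se4CL3 in blue hold 83.8% or more in the S1 libraries, and Se4CL4 in red is the largest single unigene in each S2 and S3 bar. The blue unigenes together hold 41.3% to 55.3% of the S2 bars and 34.0% to 36.6% of the S3 bars.

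Other 4CL copies of the supplementary list did not follow 1 pattern. With all 15 matched 4CL unigenes in the sum, Se4CL1, Se4CL2 and Se4CL3 made up 46.5%, 13.7% and 12.0% of it in S1, S2 and S3. Se4CL5 was not matched and is missing from this sum. TRINITY_DN3700_c0_g3, which shares 8 of 9 values with Se4CL5, had 46.10, 81.52 and 68.66 FPKM in S1, so the shares would be lower with it. Of the 11 further C4H and 4CL entries, 7 passed the filter on low values. In these, 2 were higher and 1 was lower in S2 vs. S1, 2 and 2 in S3 vs. S2, and 2 and 2 in S3 vs. S1. Of all tested unigenes, 7.24% were higher and 10.7% lower in S2 vs. S1, and 46.5% were called in S3 vs. S2. For S3 vs. S1 the shares were 22.1% and 25.4%. Se4CL10 had the highest level of the 7, at 89.32 to 101.58 FPKM in S1, 123.52 to 138.20 FPKM in S2 and 110.15 to 142.18 FPKM in S3, and was higher than S1 in S2 by 0.45 and in S3 by 0.36 (limma, adjusted p = 0.0339 and 0.0334). Se4CL6 changed by -3.24 in S2 vs. S1 and then by 1.81 in S3 vs. S2, with 22.74, 18.64 and 22.38 FPKM in S1, 0.42, 1.75 and 2.30 FPKM in S2 and 4.79, 8.06 and 9.49 FPKM in S3 (limma, adjusted p = 0.000785 and 0.00246). Se4CL11 was higher in S2 by 1.99 (adjusted p = 0.0333) and lower again in S3 by -1.88 (adjusted p = 0.0179). Se4CL13 was lower in S3 than in S2 by -0.90 (adjusted p = 0.00401). Se4CL16, at 1.83 to 2.78 FPKM in S1 and 4.36 to 9.19 FPKM in S3, was higher in S3 than in S1 by 1.21 (adjusted p = 0.0110) and than in S2 by 0.90 (adjusted p = 0.0396).

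Unigenes of the same assembly component may hold parts of the same transcript, and how reads were divided between them is not given. The component of SeC4H1 holds 1 other unigene, TRINITY_DN2847_c0_g2, with 0.67, 1.01 and 0.99 FPKM in S1 and 0 in all S2 and S3 libraries. It is this other unigene that the supplementary list names SeC4H1. In the component of Se4CL3, TRINITY_DN9941_c2_g2 had 11.22 to 16.76 FPKM in all libraries and was not called at any step. In that of Se4CL4, TRINITY_DN3700_c0_g2 had 3.47 to 6.36 FPKM in S1 and was higher in S2 by 2.17 (limma, adjusted p = 0.0138) and in S3 by 1.47 (adjusted p = 0.0268), as Se4CL4 was in S3. TRINITY_DN3700_c0_g3, of the same component, was more abundant and went the other way. It had 46.10, 81.52 and 68.66 FPKM in S1, 61.44, 68.68 and 17.99 FPKM in S2 and 20.66, 19.02 and 2.30 FPKM in S3, and was lower in S3 than in S1 by -2.52 (limma, adjusted p = 0.0238). Its other folds were -0.57 for S2 vs. S1 (adjusted p = 0.674) and -1.95 for S3 vs. S2 (adjusted p = 0.0644). In this row 8 of the 9 values are those of Se4CL5 in the supplementary list and none of them stands in the same library, so a value may not belong to the library it is filed under.

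The steps before and after C4H and 4CL are given for the same libraries. Of the 22 other structural unigenes of the short list, 8 were lower and 3 higher in S2 vs. S1, 8 and 3 in S3 vs. S2, and 13 and 7 in S3 vs. S1, and Se4CL16 is among them. Over all tested unigenes, 10.7% were lower and 7.24% higher in S2 vs. S1, and 46.5% were called in S3 vs. S2. In S3 vs. S1 these shares were 25.4% and 22.1%. The short list was made by change in these same libraries, so the counts only describe it. In the supplementary list, 12 of the 22 stand under other stages, and these 12 include 6 of the 8 lower in S2 vs. S1, 7 of the 8 lower in S3 vs. S2 and 10 of the 13 lower in S3 vs. S1, but none of the higher ones. Under the stages of that list the counts for all 22 were 4 lower and 8 higher in S2 vs. S1, 7 and 6 in S3 vs. S2, and 6 and 11 in S3 vs. S1. PAL makes the cinnamic acid that C4H uses. SePAL1 had 5.48, 17.87 and 41.49 FPKM in S1, 2.12, 4.71 and 1.53 FPKM in S2 and 1.24, 0.12 and 0.24 FPKM in S3, and was lower than in S1 in S2 (-2.28, limma, adjusted p = 0.0421) and in S3 (-3.57, adjusted p = 0.00212). SePAL2 and SePAL4 were lower in S3 vs. S1, by -1.61 and -2.44 (adjusted p = 0.000467 and 0.00366), and SePAL3 was not called. SePAL2 was also lower in S3 vs. S2, by -0.94 (limma, adjusted p = 0.00701), and was not called in S2 vs. S1 (-0.67, adjusted p = 0.0669). Its level was low, at 2.06 to 3.10 FPKM in S1 and 0 to 0.40 FPKM in S3. SeCHS1, which takes the product of 4CL into flavonoids, had 168.00, 127.68 and 90.07 FPKM in S1, 22.50, 36.09 and 43.76 FPKM in S2 and 76.83, 8.45 and 2.05 FPKM in S3, and was lower in S3 than in S1 by -3.26 (adjusted p = 0.0237). S3 replicate 1 was the highest S3 library for SeC4H1, Se4CL1, Se4CL2, Se4CL4, SePAL1, SePAL3, SePAL4 and SeCHS1, and not for Se4CL3, Se4CL7 or SePAL2. The part of that library in these results was not tested beyond the values without it above. The supplementary list gives the unigenes of SePAL1, SePAL2, SePAL3 and SeCHS1 under other stages than the files, and SePAL4 was not matched to it. The unigene called SeCHS1 here is named SeCHS2 in that list. Under those stages SePAL1 was higher in S2 than in S1 by 2.28 (limma, adjusted p = 0.0421) and its S3 vs. S1 fold was -1.29 (adjusted p = 0.133). In S3 vs. S2, SePAL1 was then lower by -3.57 and SePAL2 by -1.61 (limma, adjusted p = 0.00216 and 0.000478). SePAL2 was lower in S3 than in S1 by -0.94 (adjusted p = 0.00684), SePAL3 was still not called, and SeCHS1 was higher in S3 than in S2 by 3.26 (adjusted p = 0.0242) with an S3 vs. S1 fold of 1.89 (adjusted p = 0.146).

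Likeness in pattern was measured as Pearson r of log2(FPKM + 1) over the 9 libraries, which share their stages, so stage differences enter each value. Among the members, SeC4H1 and Se4CL2 were most alike (r = 0.905), and Se4CL4 ran opposite to the 4 falling members, at r between -0.83 and -0.59. In the short list, which holds isoflavone reductase (IFR), glycosyltransferases (UGT) and factors of the Dof, bZIP and MYB families, SeC4H1 was most like SeIFR1 (r = 0.957) and SePAL1 (r = 0.945). Se4CL2 was most like Dof FSG0107630 (r = 0.966) and SePAL1 (r = 0.928), and Se4CL1 like the same Dof (r = 0.924) and bZIP FSG0013290 (r = 0.908). Within the short list no minimum mean was set beyond the filter on low values. This Dof averaged only 1.20 FPKM, close to that filter. Se4CL3 was most like MYB FSG0047650 (r = 0.909) and SeUGT3 (r = 0.903), and Se4CL4 like SeUGT17 (r = 0.956) and SeUGT43 (r = 0.917). These are names of the short list, and the supplementary list names SeUGT3 as SeUGT17 and SeUGT17 as SeUGT15. Over 12555 unigenes of at least 10 FPKM, TRINITY_DN12906_c0_g3 was most like SeC4H1 (r = 0.990) and TRINITY_DN14961_c0_g2 most like Se4CL4 (r = 0.971). Under the stages of the supplementary list, with unigenes outside it kept as filed, the r of Se4CL4 with the 4 falling members lay between 0.04 and 0.38, and so was no longer negative. For some pairs r could not change, because both unigenes are moved in the same way or neither is moved. These pairs are SeC4H1 with SeIFR1, Se4CL2 with SePAL1, Se4CL3 with SeUGT3, and Se4CL4 with SeUGT17, SeUGT43 and TRINITY_DN14961_c0_g2. Their unchanged r therefore says nothing about the doubt over stages. The r of SeC4H1 with SePAL1 was 0.807. With the Dof, bZIP and MYB unigenes r was then between -0.33 and 0.07, and that of SeC4H1 with TRINITY_DN12906_c0_g3 was -0.47.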

How the data were processed

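Total RNA of chayote fruit was sequenced by the authors in 9 libraries, 3 per stage, and the authors deposited 1 file of FPKM values with 2 decimals per library. Per the labels, reads were filtered with fastp. Which mapper, counting tool or scaling was used is not given in the sources used here, so read counts per unigene and counting intervals cannot be given, and the library read totals that the study states were not used here. In the file of S1 replicate 1, 8 columns without a name were not used. Samples were grouped by stage from their labels. All 9 libraries were fitted together with limma 3.58.1 (R 4.3.3; lmFit, eBayes with trend) on log2(FPKM + 1), which understates the change of low unigenes, over 30201 unigenes of at least 1 FPKM in at least 3 libraries, with Benjamini-Hochberg adjusted p and a threshold of 0.05. The fit was tested on simulated data. Other calculations used Python 3.11.15, pandas 2.3.3 and scipy 1.17.1.

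The members and the lists were chosen with earlier results of these libraries known. Named genes were all members, further C4H and 4CL entries called at least once with the highest means, the PAL and CHS entries, and the most alike unigenes. Alternatives were other normalizations, filters, pseudocounts, variance models, thresholds, libraries left out, a replicate block and the stages of the supplementary list. For the first-step shares, the ratio of SeC4H1 to the ligases, the order of levels, the neighbouring steps and the likenesses, the alternatives were chosen after seeing the data. As no source ties replicates to particular fruits beyond calling them biological, p-values measure the spread between these libraries.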

Additional observations from a re-analysis of the deposited data

Results flagged for a closer look

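The file of S1 replicate 1 carries 8 unnamed columns whose values lie in 1 row alone, that of Se4CL3. All 8 values are those of Se4CL3 in the other 8 libraries, so they add no measurement. They were noted because they lie outside the columns used in the comparisons, and why they are there was not tested.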

How the results depend on the processing

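Of 418 alternative values of member folds and step differences, 383 kept direction and side of the threshold, 8 lost the call, 13 gained it and 14 changed sign. Under the stages of the supplementary list, SeC4H1, Se4CL1, Se4CL2 and Se4CL3 took folds of 2.42, 2.28, 1.29 and 2.20 for S2 vs. S1, -1.84, -2.73, -1.41 and -1.82 for S3 vs. S2, and 0.59, -0.46, -0.11 and 0.38 for S3 vs. S1, with step differences of -4.26, -5.01, -2.70 and -4.02. The share of Se4CL1, Se4CL2 and Se4CL3 was then 59.3% in S1 and 80.2% in S2, and the log2 ratio of Se4CL4 to Se4CL1 was 0.30 and -1.44. With all matched 4CL unigenes in the sum, which leaves out Se4CL5, the share was 46.5%, 13.7% and 12.0%. The labels do not say whether the replicate numbers pair the libraries. After removal of stage means, the 9 same-numbered pairs correlated at -0.14 to 0.04 and the 18 other pairs at -0.10 to 0.12. With 3 libraries per stage these values cannot show that the numbers carry no shared source. With the number as a replicate block, the S2 vs. S1 fold of SeC4H1 stayed at -1.84 but missed the threshold (limma, adjusted p = 0.0510), no other member call changed, and 4033, 13024 and 13384 unigenes were called for S2 vs. S1, S3 vs. S2 and S3 vs. S1. At an adjusted p under 0.01, SeC4H1 S2 vs. S1 (-1.84) was no longer called. With a filter at 5 FPKM, the step differences of Se4CL2 (1.18, adjusted p = 0.0473) and Se4CL3 (1.45, adjusted p = 0.0380) passed. With 1 library left out, the S2 vs. S1 fold of SeC4H1 ran between -2.25 and -1.45 (adjusted p 0.00590 to 0.0604) and that of Se4CL4 between 0.41 and 0.72 (adjusted p 0.0422 to 0.421). The S3 vs. S2 fold ran between -0.98 and -0.28 for SeC4H1, between -1.02 and -0.10 for Se4CL1 and between -0.25 and 0.016 for Se4CL2, which changed sign without S3 replicate 2. Step differences ran between 0.47 and 1.87 for SeC4H1 (lowest without S2 replicate 3, adjusted p 0.0608 to 0.665), 1.26 and 2.18 for Se4CL1, 0.91 and 1.40 for Se4CL2, 1.21 and 1.77 for Se4CL3, and -0.35 and 0.31 for Se4CL4. Those of Se4CL1 passed without S3 replicate 1 or 3, that of Se4CL2 without S1 replicate 1, and that of Se4CL3 without S1 replicate 3 or S3 replicate 1. The 5406 unigenes called for S2 vs. S1 became 2633 to 5781 with 1 library left out, 2861 with a log2 fold of at least 1 added and 2244 at an adjusted p under 0.01. With that fold minimum, 8332 of 14053 were called for S3 vs. S2 and 8662 of 14346 for S3 vs. S1. Causes were not tested. FPKM without read counts per unigene leaves the depth behind each value unknown, which bears most on Se4CL7.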
